A study of Mus musculus with 26 samples.

Results

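In the mouse embryonic fibroblast line NIH3T3, 247 of 6399 pairs of neighbouring genes showed no RNA reading from the upstream gene into the downstream gene in the untreated controls of an H2O2 and KCl experiment and some in every library made 2 h after H2O2 or KCl. These 247 pairs are the subject here. A pair is written upstream gene/downstream gene, as in Lrp10/Rem2. Members were chosen by the read-in estimate that the authors deposited for each pair and RNA library (a ratio, 0 or higher): it had to be exactly 0 in both control libraries of the H2O2/KCl experiment, and finite and above 0 in both H2O2 and both KCl libraries at 2 h. Of all pairs 2863 were at 0 in both controls. A further 330 of these were above 0 in both H2O2 libraries but not in both KCl libraries, and 111 in both KCl libraries but not in both H2O2 libraries. The values at 2 h and in their controls chose the members and are given as a description.

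The study exposed the cells to oxidative stress (H2O2 for 2 h or 7 h), osmotic stress (KCl for 2 h or 7 h) or heat, either 2 h at 44 °C or 8 h at 42 °C. H2O2 and KCl shared one untreated control, and heat had its own. PolyA-selected RNA was sequenced in 16 libraries in 8 groups of 2, and ribosome footprints, the mRNA fragments covered by ribosomes, in 10 libraries in 5 groups of 2 that covered H2O2, KCl and their control. The labels give no genetic change and no concentration of either agent, so all groups are the same line and differ by treatment. Whether the 2 replicates of a group came from separate cultures was not given in the sources used here, so p-values measure the spread between these samples, which may be technical.

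RNA polymerase II normally stops downstream of a gene, after the transcript has been cut and polyadenylated at the end of the gene. In cells under heat, oxidative or osmotic stress, termination is known to fail at many genes, and the polymerase runs on to make transcripts called DoGs (downstream-of-gene transcripts). Where a neighbour lies ahead on the same strand, the transcript can run into it, and reads over that neighbour no longer show that its own promoter was used. A transcript that reaches a gene this way can remain in the nucleus, so RNA and ribosome footprints of the downstream gene need not move together.

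The stretch before the start of a downstream gene holds its promoter, and a read-in transcript crosses it. The 250 bases before the annotated start are shown for the downstream genes of 4 members with large numbers of supporting reads (counted in the next paragraphs) and a RefSeq promoter entry, because these are the regions in which intergenic and promoter RNA meet. Sequences are from RefSeq (GRCm38.p6), 5′ to 3′ on the plus strand, which is the strand of all 4 genes, and capitals mark CpG dinucleotides, the sites of vertebrate DNA methylation. Rem2, a small GTPase that restrains voltage-gated calcium channels, starts after chr14:54475850-54476099. Cd164l2 starts after chr4:133220559-133220808, Dact3, an inhibitor of Wnt signalling, after chr7:16875067-16875316, and Hsh2d, an SH2 adaptor of blood cells, after chr8:72189418-72189667.
Rem2: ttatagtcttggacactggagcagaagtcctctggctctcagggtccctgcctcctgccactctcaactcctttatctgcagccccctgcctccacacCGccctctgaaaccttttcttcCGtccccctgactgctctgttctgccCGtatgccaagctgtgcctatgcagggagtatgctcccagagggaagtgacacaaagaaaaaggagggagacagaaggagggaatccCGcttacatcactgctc
Cd164l2: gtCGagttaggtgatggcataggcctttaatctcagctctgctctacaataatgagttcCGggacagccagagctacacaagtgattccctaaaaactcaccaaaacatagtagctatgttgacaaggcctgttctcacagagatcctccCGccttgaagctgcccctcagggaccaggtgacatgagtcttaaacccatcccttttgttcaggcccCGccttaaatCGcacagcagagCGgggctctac
Dact3: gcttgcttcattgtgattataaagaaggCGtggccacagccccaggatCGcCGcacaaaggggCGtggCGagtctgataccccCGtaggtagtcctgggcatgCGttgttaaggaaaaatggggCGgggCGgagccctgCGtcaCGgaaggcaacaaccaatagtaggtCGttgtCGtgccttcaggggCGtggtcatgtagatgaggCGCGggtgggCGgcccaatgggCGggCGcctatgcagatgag
Hsh2d: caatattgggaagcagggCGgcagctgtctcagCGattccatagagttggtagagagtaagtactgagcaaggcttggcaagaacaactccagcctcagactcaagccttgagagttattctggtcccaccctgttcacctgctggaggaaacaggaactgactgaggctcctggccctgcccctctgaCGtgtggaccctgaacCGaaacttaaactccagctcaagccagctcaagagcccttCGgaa

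The promoter of Dact3 held 19 CpG dinucleotides, an observed to expected ratio of 0.881, and is of the CpG-rich kind. Those of Rem2, Cd164l2 and Hsh2d held 4, 6 and 5, with ratios of 0.214, 0.379 and 0.275. RNA levels followed the same division, since Dact3 was at 6.22 and 7.63 TPM (a level scaled for transcript length and library depth) in the 2 H2O2/KCl controls, while Rem2, Cd164l2 and Hsh2d were below 1 TPM there. Over the 198 members with a promoter entry (80.2% of 247) the median GC content was 58.0% and the median CpG ratio 0.698. Over all pairs, of which 78.2% had an entry, the medians were 58.8% and 0.670. Over the pairs at 0 in both controls that are not members (77.2% with an entry) they were 59.6% and 0.694. The members' medians were near these.

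The estimate could be turned into whole reads for some members. For 71 of the 245 members whose downstream gene is in the RNA table (29.0%), the estimate multiplied by the downstream gene's expected count came to whole multiples of 1 unit per pair in each library, within a tolerance of 1e-06. Over all pairs with at least 4 values above 0 this held for 823 of 3250 (25.3%). The multiples are called read units here. That 1 unit is 1 read in the authors' window is inferred from the values, since the formula of the estimate was not given in the sources used here.

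Fbf1/Mrpl38 had the highest read units of the 71. Fbf1 encodes a protein of the centriole's distal appendages and Mrpl38 a subunit of the mitochondrial ribosome. The pair held 34 and 45 read units in the H2O2 libraries at 2 h and 62 and 59 in the KCl libraries, against 0 and 0 in the controls. At 7 h it held 0 and 1 after H2O2 and 1 and 3 after KCl, so nearly all of it was gone in each library. Heat of 44 °C gave 3 and 6 units and 42 °C gave 4 and 6, over 0 and 0 in the heat controls. Both heat groups lay above their control.

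Lrp10/Rem2, whose upstream gene encodes a receptor of the low-density lipoprotein family, held 41 and 46 read units after 2 h of H2O2 and 40 and 41 after 2 h of KCl. At 7 h the pair was at 0 in both H2O2 libraries, while the KCl libraries held 9 and 13. The heat libraries held 1 and 4 units at 44 °C and 3 and 2 at 42 °C, over 0 and 0 in their control. For Wasf2/Cd164l2 (Wasf2 is a WAVE-complex subunit that drives actin branching) the 2 h values were 37 and 34 for H2O2 and 22 and 7 for KCl. Every later or heat library of that pair held at most 2 units.

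Prkd2/Dact3, with a protein kinase D upstream, held 28 and 31 units after H2O2 and 13 and 19 after KCl at 2 h, and 0 in all 4 libraries at 7 h. It was 1 of the pairs with units in the heat control, at 1 and 2, where 44 °C gave 7 and 7 and 42 °C gave 6 and 4. Rab8a/Hsh2d (Rab8a is a GTPase of vesicle transport) held 25 and 25 after H2O2 and 14 and 5 after KCl. Wdr81/Serpinf2 had the opposite order, with 1 and 2 after H2O2 and 30 and 28 after KCl. It also held 13 and 16 units at 44 °C, more than in any H2O2 library.

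**Figure D1:**
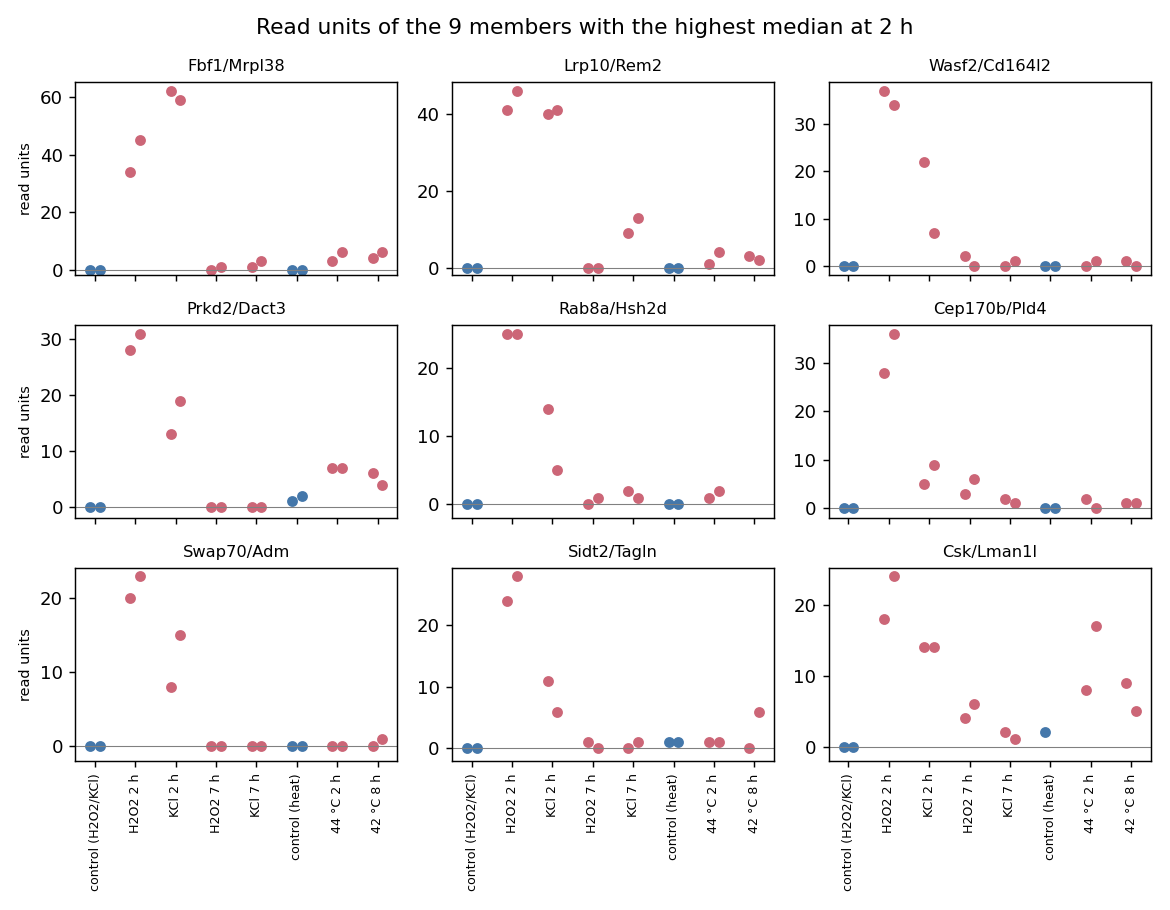
Read units (estimate times downstream expected count, in whole steps of each pair) of the 9 members with the highest median at 2 h, 1 point per RNA library by group. Libraries at 2 h of H2O2 and KCl stand apart from the rest for Fbf1/Mrpl38 (34 to 62 units against at most 6 elsewhere), while Csk/Lman1l also holds 8 and 17 units at 44 °C.

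Support was thinner for most of the 71 members with read units. Each of these held exactly 1 unit in at least 1 library, so this way of counting can favour pairs with few reads. The values do not show how many reads stood behind the remaining members. Over the 71 members with read units, the median of their 2 h medians was 5.5 units and the highest was 52, and 20 members had a median of at least 10. In 28 of them the lowest of the 4 choosing libraries held 1 unit, so that 1 unit fewer would have left the pair out. The controls were the deepest libraries of their experiment (45244430 and 35775040 expected counts, against 24441877 to 33106958 in the 8 stress libraries).

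The members with the highest mean estimates at 2 h that are described here had a downstream gene at a low level in the controls. Vwa5a/Olfr920, with an olfactory receptor downstream, had 1.07 and 1.96 after H2O2 and 10.8 and 3.92 after KCl, at 0.09 to 0.40 TPM of Olfr920. Bmpr1a/Sncg, a bone morphogenetic protein receptor before gamma-synuclein, had 0.293 and 1.46 after H2O2 and 1.46 and 3.66 after KCl. Stam2/Cacnb4, an endosomal sorting adaptor before a calcium channel subunit, had 1.59 and 2.65 after H2O2 and 0.857 and 1.10 after KCl. In the first of these pairs every KCl library was above every H2O2 library, and in the last the order was the reverse.

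Cuedc2/Psd, whose downstream gene encodes an exchange factor for ARF6, had 2.40 and 1.67 after H2O2 and 1.16 and 0.870 after KCl. Naprt/Mroh6, with an enzyme of NAD synthesis upstream and only 269 bases between the genes, had 1.20 and 0.949 after H2O2 and 2.44 and 1.09 after KCl. Hnrnpk/Kif27, an abundant RNA-binding protein before a kinesin, had 0.666 and 1.15 after H2O2 and 1.80 and 1.78 after KCl. Of these pairs, KCl was above H2O2 without overlap in Hnrnpk/Kif27 alone. Ttc36/Tmem25 had 0.464 and 0.688 after H2O2 and 3.57 and 0.666 after KCl. It is the 1 member whose genes overlap in RefSeq, by 125 bases, so its reads cannot be assigned to read-in or to either gene with certainty.

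Cacnb1/Arl5c, with a calcium channel subunit upstream, had 0.825 and 0.697 after H2O2 and 2.24 and 1.36 after KCl. Rab8a/Hsh2d had 0.785 and 0.589 after H2O2 and 2.86 and 0.557 after KCl. Replicates of a group differed by several times in some of these pairs, as in Rab8a/Hsh2d after KCl, where the 2 values rest on 14 and 5 read units.

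Over all 247 members the group means at 2 h had a median estimate of 0.0231 after H2O2 (quartiles 0.00722 and 0.141, highest 2.12) and 0.0389 after KCl (quartiles 0.00970 and 0.318, highest 7.35). An estimate of at least 0.1 was reached by 72 members after H2O2 and 83 after KCl. The mean was higher in KCl for 171 members and higher in H2O2 for 76, with a median ratio of KCl to H2O2 of 1.49. Both KCl libraries were above both H2O2 libraries in 104 members, the reverse held in 42, and the groups overlapped in 101. Of the 1710 pairs above 0 in all 4 libraries, members or not, the shares were 37.8% for KCl above H2O2 and 22.3% for the reverse. These libraries chose the members, so the order is a description and nothing is read from it. Multiplied by the downstream gene's TPM, which gives a read-in level that does not shrink as the downstream gene becomes abundant, KCl was higher in 136 and H2O2 in 109 of 245 members, with a median ratio of 1.23.

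**Figure D2:**
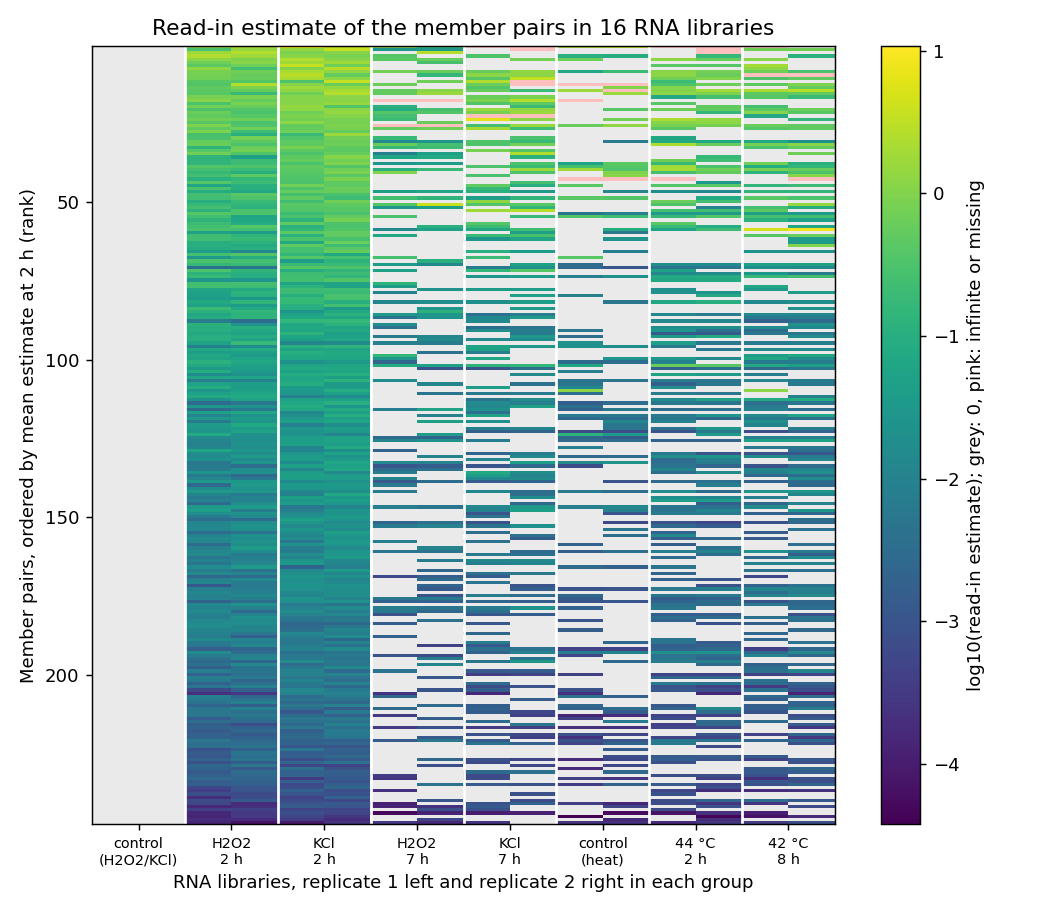
Read-in estimate (log10 colour scale) of the 247 members in the 16 RNA libraries, with members ordered from the highest mean at 2 h and replicates side by side. Grey marks an estimate of 0 and pink an infinite or missing one: the 2 H2O2/KCl controls are at 0 throughout by the rule, and the libraries at 7 h and in heat are partly grey at all ranks.

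At the lower edge of the rule, Ccdc17/Prdx1 entered with estimates of 0.000145 and 6.94e-05 after H2O2 and 8.72e-05 and 0.000252 after KCl. Ugdh/Rpl9 and Cul4a/Lamp1 followed, with lowest values of 0.000141 and 0.000150. The downstream genes here (a peroxiredoxin, a ribosomal protein and a lysosomal membrane protein) are abundant, and their small estimates are small shares of many reads. Just outside, 224 pairs at 0 in both controls failed by a 0 in 1 of the 4 libraries. Among these Skiv2l2/Ddx4 (0.924 and 2.67 after H2O2, 0 and 2.67 after KCl), Vps41/Amph and Rilp/Scarf1 had the highest means in their other libraries.

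Members lay closer together on the chromosome than other pairs, a property the rule did not use. Matched to RefSeq without regard to strand, 244 members had a median distance of 9.38 kb between the genes (quartiles 4.35 and 19.9 kb). The median over all 6170 matched pairs was 37.7 kb, and over the 2534 matched pairs that were at 0 in both controls and not members it was 56.4 kb. Distances of up to 10 kb were found in 129 members (52.9%), in 25.7% of all pairs and in 12.7% of those other pairs. Distances over 100 kb were found in 12 members (4.92%), 30.6% of all pairs and 36.1% of the others. The largest distance among members was 7235.9 kb. These are descriptions of the pairs, with no test.

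Within the members the estimate was lower where the genes were farther apart. The median of the mean 2 h estimate was 0.0502 in the 129 pairs within 10 kb, 0.0241 in the 103 pairs over 10 to 100 kb and 0.00866 in the 12 pairs over 100 kb. Swap70/Adm is of the last kind, with 344150 bases between the genes in RefSeq. The pair held 20 and 23 read units after H2O2 and 8 and 15 after KCl. Whether those reads came from a transcript that began in Swap70 was not tested. Adm encodes adrenomedullin, a vasodilator peptide, and its own RNA was high in KCl, at 79.6 and 79.9 TPM against 6.57 and 7.84 in the controls.

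**Figure D3:**
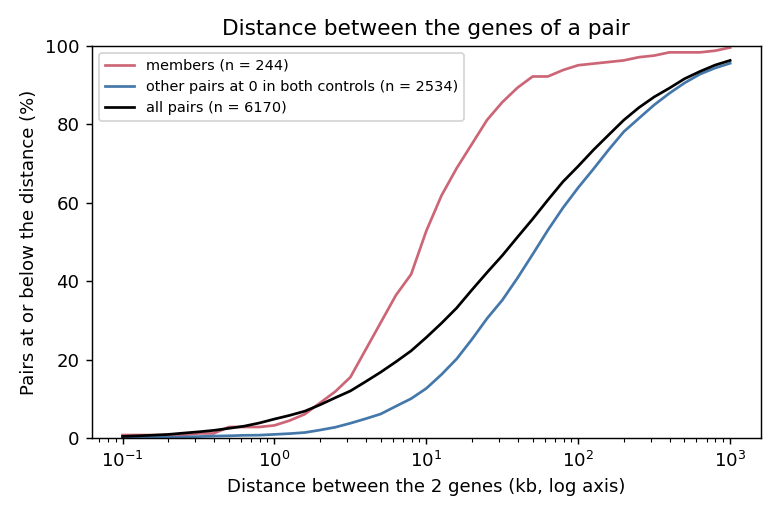
Cumulative share of pairs (%) at or below a given distance between the 2 genes (kb, log axis), for the members, all pairs, and pairs at 0 in both controls that are not members. From about 2.0 kb upward the curve of the members is farthest left, with 52.9% of members within 10 kb against 25.7% of all pairs. At shorter distances it crosses the curve of all pairs (3.28% against 4.89% within 1 kb).

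The authors' own calls were stricter than the rule. Their read-in table, which marks a pair as called or not in each library, called 13 of the 247 members, against 5.45% of all 6399 pairs, which is near the members' share. All calls of members were in libraries at 2 h of H2O2 or KCl (3 and 5 members in the H2O2 libraries, 4 and 8 in the KCl libraries). Fbf1/Mrpl38 was called in 3 of the 4 libraries. Frs2/Cct2, Hspa4l/Plk4, Naprt/Mroh6, Pdlim7/Dbn1 and Smarcc1/Cspg5 were called in 2 each. In their DoG table, 187 members had a call in at least 1 choosing library (67.6% of all pairs had one) and 26 in all 4 (11.4% of all pairs), while 63 had one in a control library (35.1% of all pairs). In each library at 2 h the share called was 34.4% to 43.7% of members and 31.9% to 35.7% of all pairs. The rule used these libraries, so nothing is read from these counts.

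Most of those pairs had an expressed downstream gene. Hspa4l/Plk4, a heat-shock protein of the HSP110 family before the kinase that starts centriole duplication, had estimates of 0.00395 and 0.00476 after H2O2 and 0.386 and 0.317 after KCl. Frs2/Cct2, an adaptor of fibroblast growth factor receptors before a chaperonin subunit, had 0.000221 and 0.000299 after H2O2, and both KCl libraries were higher, replicate 1 at 0.0105. Pdlim7/Dbn1, with the actin-binding protein drebrin downstream, had 0.0317 and 0.0310 after H2O2 and 0.0146 and 0.0218 after KCl. Smarcc1/Cspg5, a chromatin-remodelling subunit before a neural proteoglycan, had 0.324 and 0.370 after H2O2 and 1.25 and 1.19 after KCl. Replicates of these 4 pairs lay close together, and KCl was the higher stress in all of them but Pdlim7/Dbn1.

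The rule put every member above 0 in the 2 h libraries that chose them, so libraries at 7 h could not show more. At 7 h fewer members had read-in. The estimate was above 0 in both libraries for 50 of 247 members after H2O2 (20.2%, against 6.95% of all pairs that were at 0 in both controls) and for 77 after KCl (31.2%, against 5.41%). These shares use the same 2 control libraries as the rule and are given without a test. Counting from 1 library alone raised the H2O2 value to 88 or 91 and the KCl value to 114 or 123. The median estimate of the group means was 0.000186 after H2O2 and 0.00146 after KCl. Summed over members, the read-in level was 187 and 198 TPM in the H2O2 libraries at 2 h and 18.4 and 25.4 TPM at 7 h. In the KCl libraries it was 280.1 and 299.8 TPM at 2 h and 31.0 and 35.6 TPM at 7 h. The choice by values at 2 h favours a fall, so nothing is read from its direction.

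Of the members, 23 were above 0 in all 4 libraries at 7 h, 27 in both H2O2 libraries and not both KCl libraries, 54 in both KCl libraries and not both H2O2 libraries, and 51 were at 0 in all 4. By distance, 47 of the 129 pairs within 10 kb, 25 of the 103 pairs over 10 to 100 kb and 5 of the 12 pairs over 100 kb were above 0 in both KCl libraries at 7 h. For both H2O2 libraries the counts were 36, 14 and 0.

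The highest means at 7 h came from nearly silent downstream genes. Phc2/A3galt2, a Polycomb subunit before a galactosyltransferase, had 0.196 and 0 after H2O2 and 6.21 and 1.24 after KCl. Hinfp/Abcg4, a transcription factor of histone genes before a sterol transporter, was at 0 in both H2O2 libraries and at 0.403 and 3.37 after KCl. Cep170b/Pld4 had 0.539 and 0.659 after H2O2 and 1.98 and 0.220 after KCl, which rest on 3 and 6 and on 2 and 1 read units. In each of these pairs 1 library was far from its replicate.

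The 2 stresses were compared with each other at 7 h, in 4 libraries that neither chose the members nor include a control. With limma on log2(estimate + 0.01), 131 members could be fitted and 3 differed at a Benjamini-Hochberg adjusted p under 0.05, all lower after H2O2 (0.919% of the 2284 pairs tested differed, 0.438% lower and 0.482% higher). All 3 had met the filter of 2 libraries above 0 only through their KCl values, so the count gives no support to a difference between the stresses. Spryd3/Krt8, with keratin 8 downstream, was at 0 and 0 after H2O2 and at 1.80 and 2.71 after KCl. Lrp10/Rem2 was at 0 and 0 after H2O2 and at 0.629 and 0.846 after KCl. Zfp24/Zscan30, 2 zinc-finger genes, was at 0 and 0 and at 0.348 and 0.476. The Krt8 values rest on 1 and 3 read units and those of Rem2 on 9 and 13. None of the 3 passed without either H2O2 library, with no filter or with a replicate block, and without either KCl library none met the filter. The median difference over the 131 members was -0.15, and over all pairs -0.08.

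In heat, which took no part in the choice, members had read-in more often than other pairs. Of the 132 members that were also at 0 in both heat controls, 40 (30.3%) were above 0 in both libraries at 44 °C and 39 (29.5%) in both at 42 °C. Over all 2672 pairs at 0 in both heat controls the shares were 9.39% and 10%, and among the 2540 such pairs that were not members 8.31% and 9.02%. An either-replicate count gave 71 and 78 members. The heat controls were not free of read-in, since 78 and 79 members were above 0 in them and 45 in both. Whatever their heat control, 67 members were above 0 in all 4 heat libraries, 41 in both at 44 °C and not both at 42 °C, 34 in both at 42 °C and not both at 44 °C, and 35 were at 0 in all 4. The summed read-in level reached 52.5 and 51.6 TPM with heat of 44 °C and 33.5 and 39.7 TPM with 42 °C, over 10.2 and 10.8 TPM in the heat controls.

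**Figure D4:**
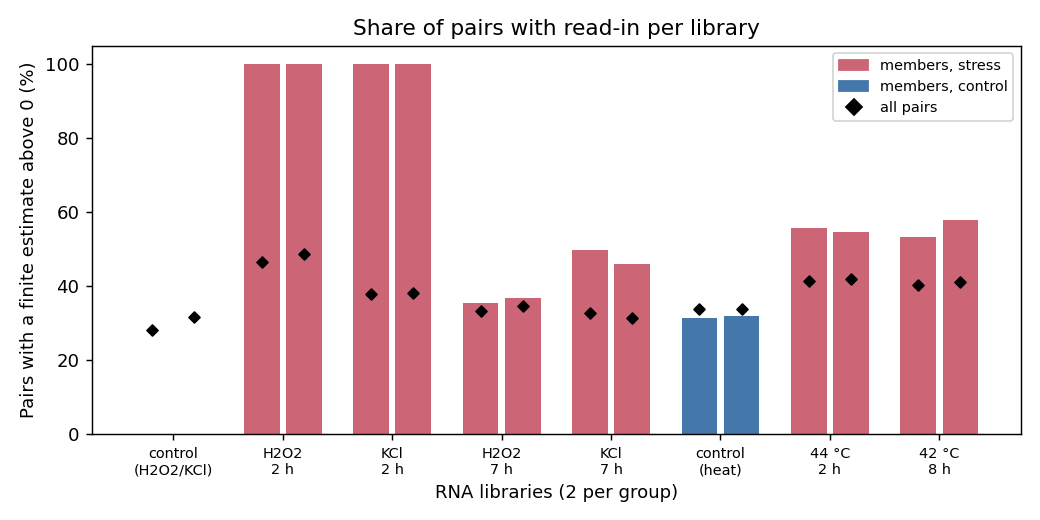
Share of the 247 members (bars, 1 per library, stress in red and control in blue) and of all 6399 pairs (diamonds) with a finite read-in estimate above 0, by RNA library. Members are at 0 and 100% in the 6 libraries that chose them, and at 88 to 143 of 247 in the other stress libraries against 78 and 79 in the heat controls.

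Fitted with limma on log2(estimate + 0.01), 13 of 173 testable members rose at 44 °C and 0 fell (of 3053 pairs tested 3.28% passed, 2.78% up and 0.491% down). At 42 °C 23 rose and 2 fell (6.32% of pairs passed, 5.57% up and 0.753% down). Of the 13 called at 44 °C, 7 had met the filter only through the group in which they were higher, and of the 25 at 42 °C, 10 had, so these counts are given as a description. Leaving out any 1 of the libraries compared brought both counts to 0, in part because pairs above 0 in only 1 remaining library were no longer tested. The median difference over the members tested was 0.21 at 44 °C and 0.20 at 42 °C, and over all pairs tested 0.18 and 0.13. A value above 0 was found for 80.9% and 76.9% of members and for 73.7% and 67.9% of all pairs.

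Neurl2/Spata25 and Hinfp/Abcg4 passed at both temperatures. Neurl2/Spata25 was at 0 in both heat controls, at 2.35 and 0.587 at 44 °C and at 0.783 and 1.17 at 42 °C, with log2 differences of 6.89 and 6.60. Hinfp/Abcg4 was at 0 in both controls, at 0.660 and 1.04 at 44 °C and at 0.330 and 0.499 at 42 °C (differences 6.39 and 5.38). All heat libraries of both pairs lay above their controls, and both pairs entered the fit through their heat libraries alone.

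Other members passed at 1 temperature. Zfp212/Zfp783&Zfp956 was at 1.10 and 1.26 at 44 °C and at 0 in the controls and at 42 °C (difference 6.89). Its genes are zinc-finger paralogs, among which reads may be split, and RNA of its joined downstream entry was not in the tables. Gtf3c5/Cel, with a pancreatic lipase downstream, was at 0.693 and 0.231 at 44 °C, and Srsf6/L3mbtl1, with a splicing factor upstream, at 0.656 and 0.236, each over 0 in the controls and at 42 °C. Sp1/Amhr2, the transcription factor Sp1 before a hormone receptor, was at 0 at 44 °C and at 0.389 and 0.605 at 42 °C (difference 5.63). These 4 pairs had entered the fit only through the temperature at which they were above 0, so that their passing shows no more than these values. Zfp593/Cnksr1 had the largest difference at 42 °C, from 0 and 0.0914 in the controls to 4.85 and 8.62 (7.67 ± 1.31, limma adjusted p = 0.0471). The difference between the 2 temperatures was not tested for these pairs.

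The 5 highest means at 44 °C also took in Csk/Lman1l, which could not be fitted, and Psmd3/Csf3, which did not pass. Csk/Lman1l, a kinase that restrains Src before a lectin gene, had 0.993 and 1.85 at 44 °C and 2.23 and 2.90 at 42 °C, and in the heat controls 1.74 and an infinite value, since Lman1l was at 0 TPM in 1 of them. It held 8 and 17 read units at 44 °C and 9 and 5 at 42 °C. Psmd3/Csf3, a proteasome subunit before the cytokine G-CSF, had 2.04 and 0.684 at 44 °C, and its heat controls at 1.82 and 0.341 overlapped them. Phc2/A3galt2 had 2.23 and 1.39 there, above 0 and 0.743 in its controls. For such nearly silent downstream genes the control could thus be as high as the stress. Lrp10/Rem2 had 0.0755 and 0.270 at 44 °C and 0.404 and 0.199 at 42 °C over 0 in both controls, and passed at 42 °C alone (difference 4.88, against 3.95 at 44 °C).

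Across all conditions, 13 members were above 0 in every stress library. Of these, Neurl2/Spata25 and Prkrip1/Orai2 were also at 0 in all 4 control libraries. Prkrip1/Orai2, with a subunit of store-operated calcium channels downstream, had 0.0718 and 0.128 after H2O2 for 2 h and 0.0492 and 0.116 after KCl for 2 h. It had 0.0346 and 0.0284 after H2O2 for 7 h, 0.00381 and 0.00812 after KCl for 7 h, 0.0135 and 0.00724 at 44 °C and 0.0143 and 0.0120 at 42 °C. At the other end, 15 members were above 0 in none of the 16 RNA libraries but the 4 that chose them.

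The median level of the upstream genes moved little with stress. It was 40.5 TPM in the H2O2/KCl control (34.3 TPM over all pairs) and 38.9 to 43.4 TPM over the 8 groups. The downstream genes had a median of 21.1 TPM in that control, and 2 h of H2O2 or KCl gave 21.2 or 18.4 TPM. The change was at the low end. Downstream genes below 1 TPM numbered 57 of 245 in the control, then 15 and 45 after H2O2 (2 h and 7 h) and 32 and 55 after KCl (2 h and 7 h). The lower quartile of the downstream genes went from 1.18 TPM to 3.98 and 2.91 TPM at 2 h. Over all pairs it went from 0.15 TPM to 0.57 and 0.32 TPM. The share of downstream genes below 1 TPM over all pairs went from 32.8% to 28.7% and 31.6%. RNA at 2 h shares its libraries with the rule, and no test of member genes is given for it. An exception is Pcf11, which enters the counts of a gene list below. Hmox1, a downstream member gene, is given at 2 h as a label check, without a test. In such bulk samples, less RNA per cell and fewer cells with that RNA cannot be told apart. The sources used here do not say whether reads were counted by strand, so reads of overlapping and antisense genes cannot be told apart either.

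A log2 fold change of at least 1 in RNA was reached by 67 downstream genes after H2O2 and 55 after KCl at 2 h, and 51 and 45 of these were below 1 TPM in both controls. A3galt2 was at 0.04 and 0.05 TPM in the controls, 11.6 and 10.6 TPM after H2O2 and 8.14 and 8.49 TPM after KCl, while its upstream neighbour Phc2 was at 109 and 115 TPM in the controls and at 109 to 125 TPM in those 4 libraries. Rem2 went from 0.25 and 0.41 TPM to 3.59 and 3.68 TPM after H2O2 and 3.23 and 2.92 TPM after KCl. Hsh2d went from 0.04 and 0.05 TPM to 2.36 and 2.95 TPM after H2O2 and 0.44 and 0.78 TPM after KCl. Stress libraries were above the controls in all of them. Dact3 was different, at 5.15 and 6.51 TPM after H2O2 against 6.22 and 7.63 TPM, although its pair held as many as 31 read units.

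Heat RNA was tested with edgeR's quasi-likelihood test on expected counts, with Benjamini-Hochberg adjustment over 12747 genes. At 44 °C 78 of the 247 upstream genes rose and 91 fell, and 97 downstream genes rose and 66 fell. Over all genes tested 71% passed, 35.4% up and 35.7% down. At 42 °C 94 upstream genes rose and 66 fell, and 64 downstream genes rose and 75 fell, where 63.6% of all genes passed, 31.7% up and 31.9% down. Median log2 fold changes were -0.03 upstream and 0.13 downstream at 44 °C and 0.04 and -0.07 at 42 °C, beside medians of 0.00 and -0.01 over all genes. Scaling by TPM moved the median of all genes at 42 °C to -0.16 and turned the split there to 39 up and 115 down upstream and 38 up and 122 down downstream. At 44 °C it gave 88 up and 73 down upstream and 110 up and 54 down downstream.

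Serpinf2, which encodes the plasmin inhibitor alpha-2-antiplasmin, had the largest change among downstream genes with over 3 counts in each group. It was at 0.12 and 0.08 TPM in the heat controls. Heat of 44 °C gave 2.40 and 2.44 TPM and 42 °C gave 1.91 and 2.13 TPM, log2 fold changes of 4.45 ± 0.32 (SE, n = 2 and 2, edgeR adjusted p = 1.87e-08) and 4.43 ± 0.32 (4.07e-08). Mroh6 went from 0.61 and 0.64 TPM to 3.85 and 5.18 TPM at 44 °C (2.82 ± 0.19, edgeR adjusted p = 9.9e-09) and was at 0.56 and 0.64 TPM at 42 °C. All of these calls held with each library left out in turn. Fam186b also rose at 44 °C, by 2.88.

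A3galt2 rose at both temperatures, by 2.68 and 2.64 on the log2 scale, from 0.10 and 0.08 TPM to 0.53 and 0.74 TPM at 44 °C and 0.47 and 0.55 TPM at 42 °C. These levels are small beside its 8.14 to 11.6 TPM at 2 h of H2O2 or KCl. Ccin, a testis gene, rose at 42 °C by 2.79, and Zfp867 fell by 2.64 (from 6.14 and 5.69 TPM to 0.93 and 0.68 TPM). Lman1l and Krt8 rose at 44 °C from few counts, from 2 to 30 and from 3 to 31 over the group, ratios of 17.5 (95% counting interval 4.45 to 151) and 12.1 (3.77 to 61.8). Zfp867 was the 1 gene among these that went down.

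Among upstream genes, Matn4, a matrilin of the extracellular matrix, rose at 44 °C from 0.23 and 0.18 TPM to 1.55 and 2.08 TPM (3.05 ± 0.32, edgeR adjusted p = 8.75e-07). Kcnj14, an inward-rectifier potassium channel, rose by 2.53 at 44 °C and by 3.51 ± 0.22 at 42 °C (edgeR adjusted p = 1.17e-08), to 2.85 and 2.84 TPM. Tm6sf2 rose by 2.78 and 1.87 and Gp5, a platelet glycoprotein, by 2.39 and 1.72. Mc1r, the melanocortin receptor, is both an upstream and a downstream member gene. It went from 2 to 86 counts at 42 °C, a ratio of 49.6 (13.3 to 416). Hkdc1 went from 0 to 21 counts at 44 °C and to 14 at 42 °C, at least 8.19-fold and 5.39-fold higher against a floor of 3 counts over the group. Cd79a, a B-cell gene, went from 3 to 74 counts at 44 °C (ratio 28.8, 9.50 to 143). Its call at 42 °C (3 to 11 counts) was lost with DESeq2 and without heat control replicate 1 or 2 or 42 °C replicate 2.

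**Figure D5:**
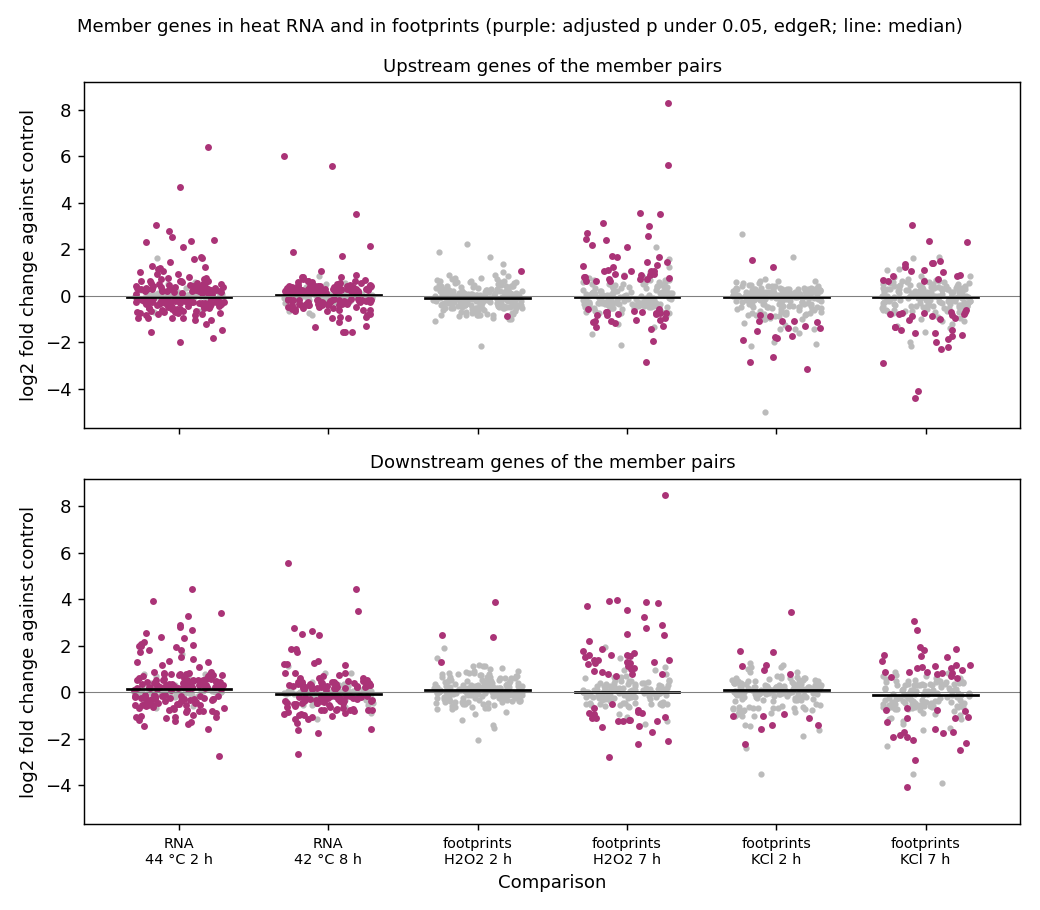
Log2 fold changes against control of the upstream genes (top) and downstream genes (bottom) of the member pairs in the 2 heat RNA and 4 footprint comparisons, 1 point per tested gene, with the median as a line. Purple points passed edgeR at an adjusted p under 0.05: 78 to 94 upstream genes rose in the heat comparisons, and 1 upstream and 4 downstream genes in footprints at 2 h of H2O2.

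Footprints, which took no part in the choice, were tested in the same way over 10545 genes. Many downstream genes with higher RNA had few footprints. Of the 67 downstream genes with an RNA log2 fold change of at least 1 after H2O2, 44 had at most 3 footprints over both stress libraries together, and of the 55 after KCl 42 did. At 7 h the same held for 23 of 57 after H2O2 and for 26 of 41 after KCl. No matching share over all genes was taken. At 2 h, 51 of the 67 and 45 of the 55 were below 1 TPM of RNA in both controls. Nothing about translation is read from these counts. A3galt2 had 0 and 0 footprints in the controls, 1 and 0 after H2O2 and 1 and 0 after KCl. Hsh2d and Serpinf2 had 0 in all 6 of these libraries, and Rem2 had 1 and 2 in the controls, 0 and 3 after H2O2 and 1 and 0 after KCl. A count of 0 in a library allows up to 3 footprints. Footprint libraries held 1460751 to 5168537 counts and both extremes were the H2O2 libraries at 2 h.

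Some downstream genes had RNA and footprints both higher. They were looked for among genes picked for higher RNA, without a share over all genes with such a rise. Of the 67 genes after H2O2, 17 could be tested in footprints, and 4 rose and 0 fell. Those 4 were all the downstream genes called at 2 h of H2O2 (1.91% of all genes passed, 1.14% up and 0.768% down). Fosb, a subunit of the AP-1 transcription factor, went from 20 and 26 to 139 and 435 footprints (log2 fold change 3.87 ± 0.29, edgeR adjusted p = 2.48e-05). Hmox1, the haem oxygenase induced by oxidative stress, went from 839 and 914 to 1449 and 7126 (2.37 ± 0.29, edgeR adjusted p = 0.00107). Ddit3, a transcription factor of the integrated stress response, went from 10 and 7 to 19 and 62, and Zbtb10 from 92 and 66 to 62 and 294. The calls of Ddit3 and Zbtb10 were lost without H2O2 replicate 2 (edgeR adjusted p = 0.0708 and 0.102), without control replicate 1 (0.0903 and 0.0626) and without control replicate 2 (0.115 and 0.132). The downstream count of 4 was 2 in each of these 3 fits. Tom1/Hmox1 had small estimates after H2O2, 0.000159 and 0.000217, beside 1374 and 1254 TPM of Hmox1. Dctn2/Ddit3 had 0.00744 and 0.00918, beside 131 and 109 TPM of Ddit3.

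Among upstream genes at 2 h of H2O2, Pcf11 rose and Ubr4 fell. Pcf11, itself a subunit of the cleavage and termination machinery, went from 161 and 150 to 106 and 496 footprints (1.07 ± 0.21, edgeR adjusted p = 0.0210). Its call was lost without H2O2 replicate 2 (0.107) and without control replicate 1 or 2 (0.139 and 0.115). Ubr4, an E3 ubiquitin ligase, lost its call with each library left out (adjusted p 0.0558 to 0.126). Without control replicate 1 or 2 the upstream count of 2 was 0. With DESeq2 1 upstream gene rose and 6 fell.

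After 2 h of KCl, 7 downstream genes rose and 8 fell, and 2 upstream genes rose and 17 fell (6.86% of all genes passed, 1.79% up and 5.06% down). With DESeq2 6 downstream genes rose and 4 fell. Of the 55 downstream genes with higher RNA, 11 could be tested and 4 rose in footprints: Adm, Fosb, Cnksr3 and Elf1, the last named after its values were seen. Adm went from 19 and 24 to 195 and 170 footprints (3.47 ± 0.34, edgeR adjusted p = 0.000110), with RNA at 79.6 and 79.9 TPM. Cnksr3, a scaffold protein of kinase signalling, went from 27 and 29 to 72 and 75. Fosb went from 20 and 26 to 62 and 55, a call lost without control replicate 1 (edgeR adjusted p = 0.0524). Relb, a subunit of NF-kappaB, fell from 129 and 152 to 21 and 25 (-2.21 ± 0.30, edgeR adjusted p = 0.00120). Its RNA went from 56.0 and 54.1 TPM to 46.3 and 41.4 TPM.

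Cep170b, the upstream gene of Pld4, fell from 149 and 145 to 34 and 30 footprints (-1.80 ± 0.27, edgeR adjusted p = 0.00193). Rc3h2 (157 and 104 to 39 and 19) and the downstream gene Mknk2 (175 and 113 to 43 and 30) also fell, and both calls were lost without KCl replicate 2 (edgeR adjusted p = 0.0891 and 0.0916) or control replicate 1 (0.0690 and 0.0761). The upstream count of 19 went to 7, 4, 7 and 9 without KCl replicate 1, KCl replicate 2, control replicate 1 and control replicate 2. The downstream count of 15 went to 6, 6, 4 and 6 in the same order. Zfp1, Nlk, Gdpgp1, Dennd4b and Sh3bp2, which fell as well, passed in none of these 4 fits.

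At 7 h of H2O2 39 upstream genes rose and 25 fell in footprints, and 38 downstream genes rose and 21 fell (27.7% of all genes passed, 17.2% up and 10.6% down). Of the 57 downstream genes with an RNA log2 fold change of at least 1 at that time, 24 could be tested and 22 rose in footprints. These genes were picked for higher RNA, and no share over all genes with such a rise was taken. Orai2 went from 11 and 12 to 160 and 143 footprints (3.85 ± 0.35, edgeR adjusted p = 5.41e-06), with RNA going from 6.84 and 7.53 to 45.8 and 47.4 TPM. Cnksr1 went from 2 and 2 to 26 and 25, Pstpip1 from 3 and 2 to 37 and 35, and Lrrc15 from 7 and 8 to 129 and 78. Tbx2, a T-box transcription factor, went from 0 and 0 to 27 and 68, at least 36.7-fold higher against a floor of 3 counts over the group, although its DESeq2 adjusted p was 0.228. Has3, a hyaluronan synthase, went from 1 and 2 to 22 and 25 (ratio 18.2, 5.84 to 91.2). None of these overlapped its controls.

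Upstream genes at 7 h of H2O2 included Matn4, from 0 and 1 to 237 and 131 footprints (ratio 426, 76.1 to 16887), and Bcl2l15, from 0 and 1 to 29 and 28 (ratio 66.0, 11.4 to 2654). Aldh4a1, a mitochondrial enzyme of proline breakdown, went from 64 and 68 to 718 and 665 (3.53 ± 0.27, edgeR adjusted p = 1.37e-06), and Ak1, an adenylate kinase, from 127 and 106 to 962 and 866. Zfpm1 and Dennd2c rose by 3.55 and 3.01. The upstream count of 64 went to 37, 38 and 36 without H2O2 replicate 1, H2O2 replicate 2 and control replicate 2, and the downstream count of 59 to 39 without H2O2 replicate 2. With TPM scaling the split was 41 up and 13 down upstream and 38 up and 16 down downstream.

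At 7 h of KCl 18 upstream genes rose and 29 fell, and 25 downstream genes rose and 20 fell (20.4% of all genes passed, 10.5% up and 9.83% down). With DESeq2 19 upstream genes rose and 17 fell. Of the 41 downstream genes with an RNA log2 fold change of at least 1 at that time, 13 could be tested and 12 rose in footprints. This count also has no matching share over all genes with such a rise. Hspa4l rose from 493 and 361 to 2300 and 3296 footprints (3.03 ± 0.19, edgeR adjusted p = 2.96e-06), as its RNA went from 96.2 and 102 to 866 and 933 TPM. Its downstream neighbour Plk4 had an estimate of 0.00682 and 0.0205 at that time, against 0.386 and 0.317 at 2 h. Adm stayed above its control at 140 and 148 footprints, and Tnfrsf23, a decoy receptor, went from 58 and 19 to 197 and 189. Relb fell to 24 and 16, Coasy, which makes coenzyme A, from 78 and 57 to 9 and 15, and Rasa3, a Ras GTPase-activating protein, from 289 and 211 to 35 and 45.

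Fbf1, both an upstream and a downstream member gene, fell from 31 and 18 to 3 and 2 footprints at 7 h of KCl, a call lost without KCl replicate 2 (edgeR adjusted p = 0.0996). Egr3 (85 to 3 counts over the group, 25.1-fold lower, 8.29 to 124) lost its call without KCl replicate 1 or 2 (edgeR adjusted p = 0.0630 and 0.115) or control replicate 2 (0.0574). Prss22 (48 to 2 counts, 21.2-fold lower, 5.57 to 180), Kbtbd6 and Dennd4b were named by the same rule and also lost theirs in at least 1 such fit. The upstream count of 47 went to 24, 16 and 25 without KCl replicate 1, KCl replicate 2 and control replicate 2. The downstream count of 45 went to 18, 21, 28 and 21 without KCl replicate 1, KCl replicate 2, control replicate 1 and control replicate 2.

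Of 30 genes for cleavage, polyadenylation and termination, 28 could be tested. In RNA, 8 rose and 6 fell after H2O2 for 2 h (53.9% of all genes passed, 27.3% up and 26.5% down) and 7 rose and 8 fell after H2O2 for 7 h (70.5%, 39.4% up and 31.1% down). After KCl 6 rose and 8 fell at 2 h (54.2%, 27.2% up and 27% down) and 17 rose and 6 fell at 7 h (68.8%, 37.2% up and 31.6% down). Heat of 44 °C raised 14 and lowered 7 (71%, 35.4% up and 35.7% down). Heat of 42 °C raised 18 and lowered 5 (63.6%, 31.7% up and 31.9% down). With TPM scaling the list had 7 up and 7 down at 42 °C, 3 up and 8 down after H2O2 for 7 h, 5 up and 11 down after KCl for 2 h and 14 up and 8 down after KCl for 7 h. DESeq2 also gave 3 up and 8 down after H2O2 for 7 h, and the count there was 3 up and 6 down without control replicate 1. Pcf11, also an upstream member gene, had RNA log2 fold changes of 1.78 after H2O2 and 1.76 after KCl at 2 h. The libraries at 2 h chose the members, so these values are a description. The counts of the list at 2 h include Pcf11. Ppp1r10, a regulator of the phosphatase that slows polymerase II at termination, rose by 1.73 and 1.55, and Cstf3, a subunit of the cleavage stimulation factor, by 1.11 and 0.90. Others of the list fell at 2 h, such as Cstf1 (-0.53 after H2O2 and -0.85 after KCl) and Clp1 (-0.74 and -0.45). At 7 h the log2 fold changes of Pcf11 were -0.11 and -0.20, neither past the threshold.

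The labels were checked against stress genes and markers. In RNA, Hmox1 rose by 3.26 and Slc7a11 by 3.97 on the log2 scale at 2 h of H2O2, Nfat5 by 2.01 and Slc38a2 by 2.61 at 2 h of KCl, and Hspa1b by 2.92 at 44 °C and 6.41 at 42 °C. Hspb1 rose by 5.21 at 44 °C and 3.97 at 42 °C. Hmox1 is also a downstream member gene, and libraries at 2 h chose the members, so its value is a description. Hspa1b also rose by 2.76 after KCl for 2 h and by 2.82 after KCl for 7 h, so it did not mark heat alone. The 8 fibroblast markers were all in the table and summed to 4147 to 11276 TPM per library. Markers of neurons summed to at most 0.17 TPM, of endothelium to at most 3.18 TPM, of epithelium to 7.89 to 19.6 TPM and of blood cells to 5.33 to 44.8 TPM, where 3 of the 4 blood markers were below 1 TPM everywhere.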

How the data were processed

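RNA (16 libraries) and ribosome footprints (10 libraries) of NIH3T3 cells were analysed from deposited tables, with groups taken from the sample labels. The authors deposited expected counts and TPM per gene, per the file headers, and the submitters' processing notes name STAR, RSEM, Bowtie and build mm10, without versions. The deposited expected counts were whole numbers. The authors' read-in estimate is a deposited ratio per pair and library, infinite or missing where the downstream gene has no reads, and its formula was not given in the sources used here. Left unused were 12 per-sample columns that belong to no labelled sample.

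Counts were tested with edgeR 4.0.16 (R 4.3.3; TMM, filterByExpr, quasi-likelihood F test, all groups of an experiment in 1 fit) and estimates with limma 3.58.1 on log2(estimate + 0.01), for pairs finite in all libraries of the fit and above 0 in at least 2. P-values were Benjamini-Hochberg adjusted over all features, at 0.05. Totals were 24441877 to 45244430 expected counts per RNA library and 1460751 to 5168537 per footprint library. Floors and intervals cover counting error only. Read-in level is the estimate times the downstream TPM. Positions and promoters are RefSeq GRCm38.p6, and gene pairs were matched by symbol, not strand.

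Named genes are the 10 highest mean estimates at 2 h, the 5 highest at 7 h and at 44 °C, the 10 largest called pairs and the 6 largest called genes per role and comparison. Some members that this rule names are not reported here. The members, lists and rules were chosen with earlier results of these data known. On simulated data, 91% of 200 changed genes were recovered for RNA at 44 °C (5.70% of calls false, 12747 genes). For footprints at 2 h of KCl 62.5% were recovered (8.09%, 10545 genes), and for estimates at 44 °C 80% (5.33%, 3053 pairs). These rates describe the simulated data. Of the 13 members called in the real estimates at 44 °C, 7 had met the filter only through their higher group. The simulated rates for estimates are therefore not taken as rates of the real calls. Alternatives were DESeq2 1.42.0, limma on log2(TPM + 1), no filter, only the groups compared, a replicate block, other pseudocounts and leaving out each library.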

Additional observations from a re-analysis of the deposited data

Results flagged for a closer look

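At 7 h 3 members differed between the 2 stresses, by limma on log2(estimate + 0.01) in the 4 libraries at that time. The log2 difference, H2O2 minus KCl, was -7.79 for Spryd3/Krt8, -6.21 for Lrp10/Rem2 and -5.38 for Zfp24/Zscan30. In each pair both H2O2 libraries were at 0 and both KCl libraries above 0. The pairs had met the filter on low values only through their KCl libraries, and none passed without either H2O2 library, with no filter or with a replicate block, while without either KCl library none met the filter, so the count of 3 gives no support. The size of a difference from 0 on this scale is set by the pseudocount, and no cause was tested.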

How the results depend on the processing

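Of the counts over member genes and pairs, 87 values under the alternatives stayed within 1.5 times the main count and 65 moved further, and no direction reversed among the named genes and pairs, of which 128 values lost their call. Of the counts over the cleavage and termination genes 2 moved. In footprints at 2 h of H2O2 the upstream count of 2 was 7 with DESeq2, 0 with TPM scaling, 7 with no filter and 0 with only the groups compared, and the downstream count of 4 was 2 with TPM scaling and 2 with only the groups compared. At 2 h of KCl the downstream footprint count of 15 was 9 with TPM scaling and 9 with only the groups compared. The read-in count at 44 °C (13) was 6 with no filter and 7 with a pseudocount of 0.1, and that at 42 °C (25) was 11 with no filter. The count between H2O2 and KCl at 7 h (3) was 0 with no filter, 26 with a pseudocount of 0.001 and 0 with 0.1. Members above 0 in both libraries numbered 40 at 44 °C, 39 at 42 °C, 50 after H2O2 for 7 h and 77 after KCl for 7 h. With at least 0.01 required in both they numbered 19, 16, 25 and 39, and with either replicate 71, 78, 129 and 160. The cause of these moves was not tested, except that a minimum and an either-replicate rule admit fewer or more pairs by construction.

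With 1 library left out, the lone sample is assumed to vary like the other groups. Footprint counts at 2 h of H2O2 then ranged from 0 to 2 upstream and 2 to 4 downstream, at 7 h of H2O2 from 36 to 55 and 39 to 43, at 2 h of KCl from 4 to 9 and 4 to 6, and at 7 h of KCl from 16 to 32 and 18 to 28. Heat RNA counts ranged from 154 to 165 upstream and 149 to 160 downstream at 44 °C and from 138 to 145 and 117 to 125 at 42 °C. All 3 read-in counts went to 0. Members with read-in ranged from 55 to 58 at 44 °C, 52 to 59 at 42 °C, 88 to 91 after H2O2 for 7 h and 114 to 123 after KCl for 7 h.

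Replicates share a number only: same-numbered libraries had correlated deviations of 0.04 to 0.11 in heat RNA (3 pairs of groups), -0.13 to 0.17 in H2O2/KCl RNA and -0.40 to 0.44 in footprints. With a replicate block the read-in counts were 0 at 44 °C, 3 at 42 °C and 0 between H2O2 and KCl, and the gene counts were 174 and 169 upstream and downstream at 44 °C, 161 and 144 at 42 °C, and 3 and 4, 68 and 64, 17 and 12, and 46 and 47 in footprints at 2 h and 7 h of H2O2 and 2 h and 7 h of KCl. The alternatives for the cleavage and termination genes were chosen after seeing the data. Their count was 14 with TPM scaling against 23 at 42 °C. Leaving out 1 library, it ranged from 9 to 13 after H2O2 for 7 h, where it was 15. In footprints 36 upstream and 65 downstream genes could not be tested (33 and 63 with too few counts, 3 and 2 not matched in the table). Whether the few counts come from depth or from low expression was not tested.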
